A study of Drosophila melanogaster with 2 samples.

Results

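The vacuolar proton pump (V-ATPase) of Drosophila melanogaster was represented by 33 protein-coding genes, taken as every gene of the Ensembl dm6 annotation whose symbol begins with Vha, out of 13945 protein-coding genes in all. The question asked of the data was where the transcription factor foxo was recorded near the transcription start sites (TSSs) of these genes, and whether the widely expressed gene for a subunit and its tissue-restricted paralogues differed. The data came from chromatin immunoprecipitation followed by sequencing (ChIP-seq) of whole larvae in the wandering stage of the third instar, with males and females pooled and age given as unknown. The larvae came from the strain foxo-GFP, a stable transgenic line in which GFP is fused to the C-terminus of foxo. There was 1 group of 2 biological replicates, numbered 5 and 6, with no second genotype, treatment or time, and the chromatin was sheared by sonication. The precipitation used an antibody against GFP, although another label of the same samples names foxo as the antibody's target. Both replicates share that 1 line and donor, the labels do not name the promoter that drives the fusion, and whole larvae mix all larval tissues, so strong binding in few cells and weak binding in many cannot be told apart. The control library that the labels point to was not analysed here.

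The V-ATPase is a rotary enzyme that burns ATP to push protons across membranes, and it acidifies lysosomes, endosomes and secretory vesicles and energises the apical membrane of insect gut and Malpighian tubule. Its soluble V1 sector holds the catalytic A subunits, the nucleotide-binding B subunits, the central rotor (D and F), the peripheral stalks (E and G) and the regulatory C and H subunits. Its membrane V0 sector holds the a subunit, which carries the proton path, the rotating ring of c and c'' proteolipids, the d subunit that joins ring and rotor, and the small e subunit. Foxo is the fly's FOXO-family forkhead factor, which enters the nucleus when insulin signalling is low. In mammals the genes of this pump are known targets of TFEB, the counterpart of fly Mitf, and the pump itself is part of the machinery that senses amino acids for TOR at the lysosome.

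The members were described in 4 region lists that the authors deposited in dm6 coordinates, each giving a region, its summit and a signal value from the authors' caller. A list of 1427 regions had passed the authors' irreproducible discovery rate (IDR) step, with signals from 69.0 to 745 and a median of 90.6. These were the same regions as the 1427 highest of the pooled list, so a place in the IDR list follows from the pooled signal. The pooled list and the list of each replicate were relaxed lists of exactly 30000 regions, deposited as input for IDR, and they therefore hold many regions of weak signal. In the pooled list the signal ran from 13.7 to 745 with a median of 21.4, and 3553 regions had a q value of at most 0.01. In replicate 5 that was so of 1061 regions and in replicate 6 of 6870. Read depth is unknown, and signals are not on 1 scale between the replicates, so ranks within a list, with 1 as the highest, are given beside them. A gene was counted in a list if any of its TSSs had a summit at a distance of at most 1000 bp. With 2 replicates of 1 group no difference was tested, and the intervals below are 95% Clopper-Pearson intervals that cover counting error over genes only.

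Taken as 1 family, the pump genes were near the background of all genes. An IDR summit lay at 2 of the 33, Vha100-2 and Vha14-1, which is 6.06% where 7.71% of protein-coding genes had one. Pooled regions lay at 19 members (57.6%, against 58.3% of all genes). Replicate 5 had regions at 15 members (45.5%, against 54.6%), replicate 6 at 22 (66.7%, against 61.6%), and both replicates at 14 (42.4%, against 43.6%). Among the 1427 highest regions of replicate 5 alone, 3 members had one, Vha100-2, Vha14-1 and Vha44 (9.09%, against 7.44%). Among the 1427 highest of replicate 6 alone, Vha100-2 was the 1 member (3.03%, against 7.60%).

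The members of 2 expression classes fell on either side of that background. The broad class was taken from general knowledge of where fly genes are expressed and holds 14 members, Vha68-2 (A), Vha55 (B), Vha44 (C), Vha36-1 (D), Vha26 (E), Vha14-1 (F), Vha13 (G), VhaSFD (H), Vha100-2 (a), Vha16-1 (c), VhaPPA1-1 (c''), VhaAC39-1 (d), VhaM9.7-b (e) and VhaAC45 (accessory). The other class holds the remaining 19, most of them known for narrower expression. Pooled regions lay at 13 of 14 broad genes (92.9%, interval 66.1 to 99.8%) and at 6 of 19 others (31.6%, interval 12.6 to 56.6%), with the 58.3% of all genes between them. Replicate 5 had regions at 11 broad genes (78.6%) and 4 others (21.1%), and replicate 6 at 13 (92.9%) and 9 (47.4%). Both replicates had a region at 10 broad genes (71.4%, interval 41.9 to 91.6%) and at 4 others (21.1%, interval 6.05 to 45.6%), though the regions of the 2 replicates could lie at different positions. The IDR summits were both at broad genes (14.3%, interval 1.78 to 42.8%), and the count in the other class was 0 of 19, with an interval up to 17.6%. The 1-sided limit of 3 counts of the total, used for counts of 0, is 15.8%, lower than the end of the 2-sided interval and likewise over genes only. The class difference was thus seen in each replicate list, with the wider gap in replicate 5.

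**Figure D1:**
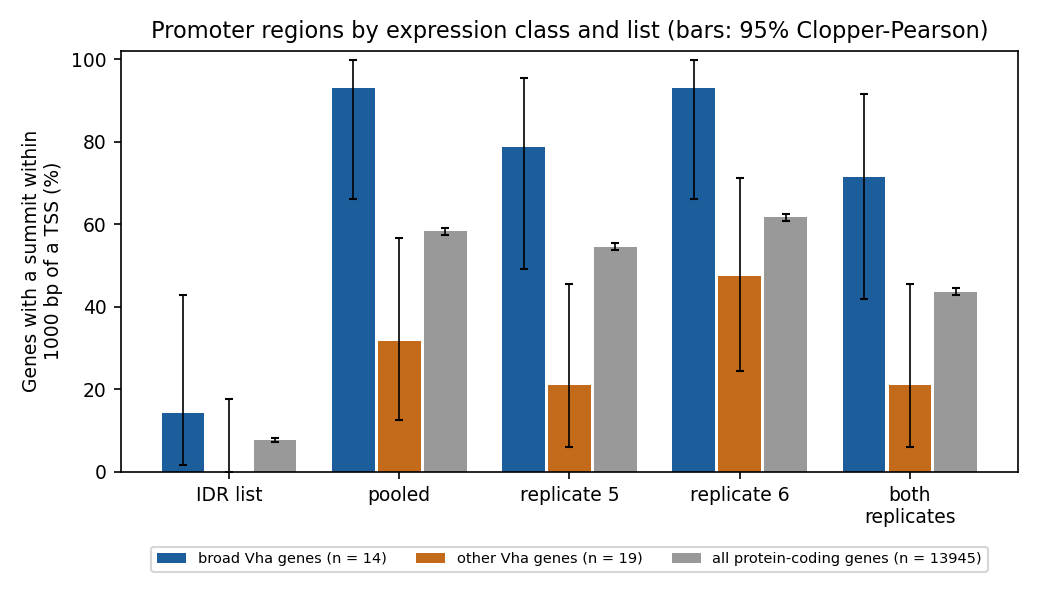
Share of genes (%, vertical axis) with a summit within 1000 bp of a TSS, for the 14 broad pump genes, the 19 other pump genes and all 13945 protein-coding genes, in each region list; bars are shares and lines are 95% Clopper-Pearson intervals over genes. In the pooled list the broad genes stand at 92.9% and the others at 31.6%, with all genes at 58.3%.

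The same order was seen higher up the pooled list. Among the 10000 highest pooled regions, 11 broad genes and 1 other, Vha16-5, had one, where 36.1% of all genes did. At a q value of at most 0.01 there were 4 broad genes, Vha100-2, Vha14-1, Vha44 and Vha36-1, and none of the 19 others, where 17.5% of all genes had such a region. Of the regions behind that count, only the one 148 bp upstream of Vha14-1 had the pump gene's own TSS as its nearest. The rest were nearer to a TSS of Vti1b, Gmppa, Hmgs or CG8187, so this tier may belong to the neighbours as much as to the pump genes. Of members with a pooled region, the median rank of the best one was 4786 over the 13 broad genes and 19504 over the 6 others, beside 6954 over the 8132 protein-coding genes with one. No region in any list lay at 9 members, all of the other class (Vha68-1, Vha68-3, Vha36-2, Vha14-2, Vha100-3, Vha16-2, Vha16-4, VhaM9.7-d and VhaAC45RP). That is 47.4% of the other class and 0 of 14 of the broad class (interval up to 23.2%, or 21.4% by the same 1-sided limit), beside 26.2% of all protein-coding genes.

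Gene structure also differed between the classes. A broad gene had 1.64 annotated TSSs on average and another member 1.16, where protein-coding genes averaged 1.41, and more TSSs give more chances to lie near a region. Among genes with 1 TSS, 8 of 9 broad genes had a pooled region (88.9%) and 4 of 16 others (25%), against 50.8% of all protein-coding genes with 1 TSS. A protein-coding gene on the opposite strand started within 1000 bp upstream of 9 broad genes (64.3%) and of 5 others (26.3%), where 36.2% of all genes had such a divergent neighbour. All 9 divergent broad genes had a pooled region, as did 4 of the 5 broad genes without such a neighbour. Of the others, 3 of 5 divergent genes and 3 of 14 (21.4%) non-divergent genes had one. Over all protein-coding genes the shares were 72.1% of divergent and 50.5% of non-divergent genes. The part of gene structure in the class difference was not tested. The class of Vha68-1 and Vha100-1 is in doubt, and with both moved to the broad class the pooled counts were 13 of 16 and 6 of 17. The counts with no region in any list then became 1 of 16 (Vha68-1) and 8 of 17.

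**Figure D2:**
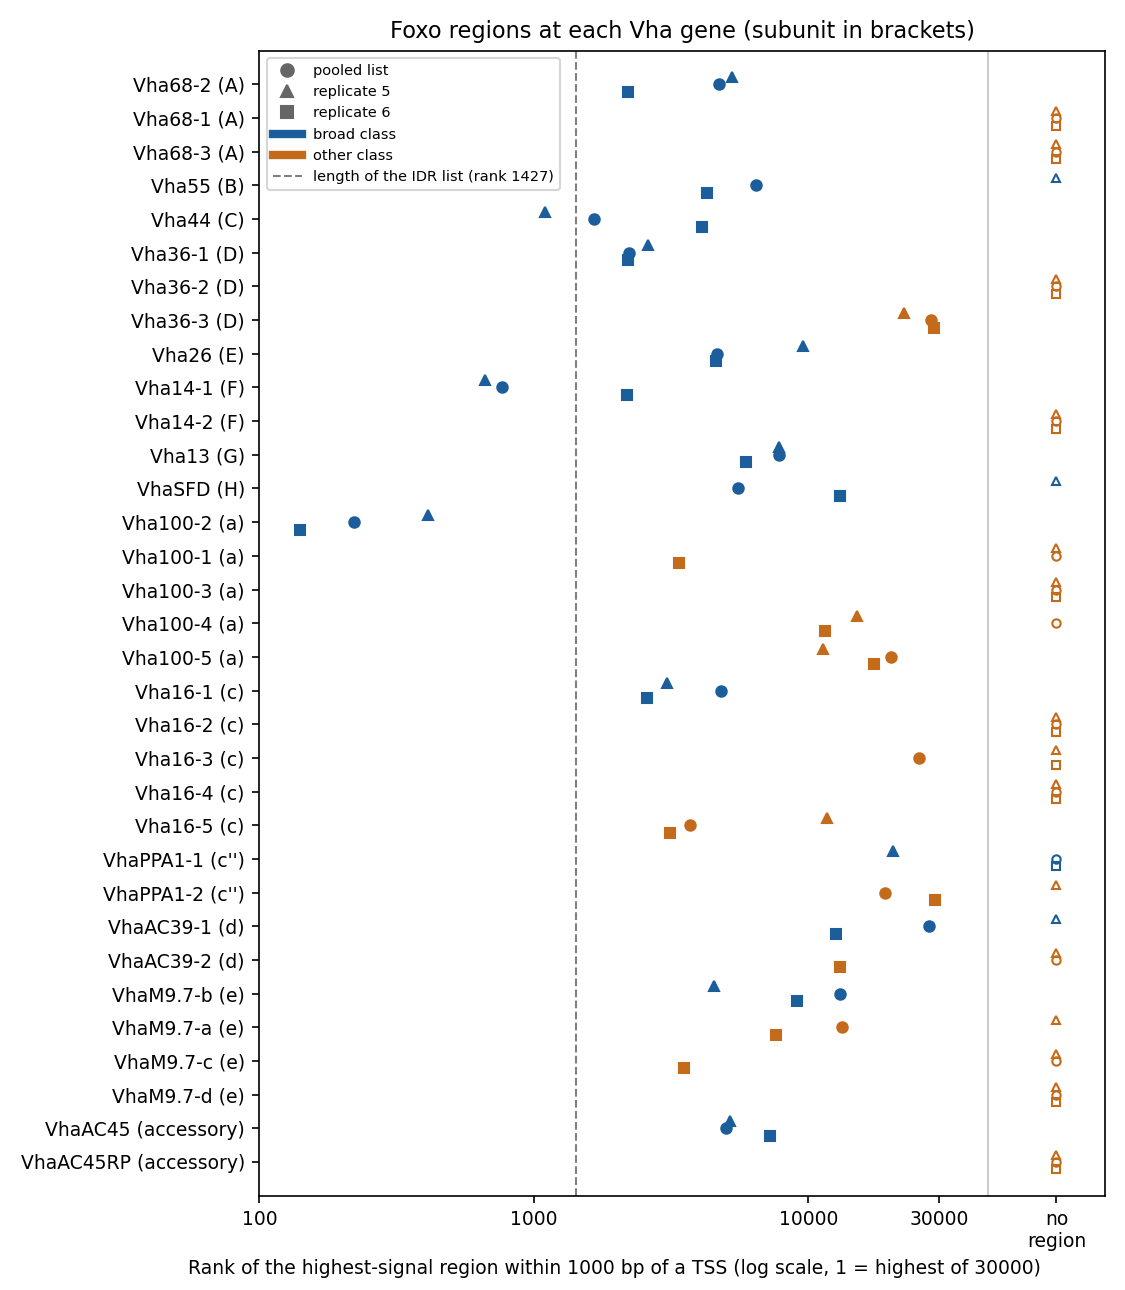
Rank of the highest-signal region within 1000 bp of a TSS (horizontal log axis, 1 = highest of 30000) for each of the 33 pump genes, in the pooled list (circles), replicate 5 (triangles) and replicate 6 (squares); colours give the class and open symbols mark a gene with no region in that list. Vha100-2 and Vha14-1 have pooled ranks of 221 and 764, to the left of the dashed line at 1427.

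The highest signal at a pump gene was at Vha100-2 (FBgn0028670, chromosome arm 3R, 18390323 to 18399169, minus strand), which encodes a broadly expressed a subunit of the membrane sector. Its IDR region (3R, 18397172 to 18397267) had a pooled signal of 139 and rank 221. The signal was 57.8 at rank 412 in replicate 5 and 89.8 at rank 140 in replicate 6, so both replicates placed it high. The summit lay 261 bp upstream of the nearer of the gene's annotated TSSs, inside the gene body. It also lay 194 bp from the start of Vti1b, a divergent SNARE gene whose TSS is 67 bp from a Vha100-2 TSS. The summit was in an annotated 5′ UTR, at a position inside both genes. The promoter of Vti1b was thus nearer to this summit than that of the pump gene. Vha100-2 had 6 pooled regions within 1000 bp of its TSSs, as many as any member.

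The second IDR region at a member was at Vha14-1 (FBgn0262512, 2R, 15679426 to 15680084, minus strand), which encodes the F subunit of the central rotor. That region (2R, 15679103 to 15679482) had a pooled signal of 87.9 at rank 764. Replicate 5 gave 46.3 at rank 661 and replicate 6 gave 35.7 at rank 2187, so replicate 6 placed it below its own highest 1427. The summit was intergenic, 791 bp downstream of the Vha14-1 TSS and past the end of this short gene. The nearest TSS, at 337 bp, was that of Gmppa. A separate pooled region lay 148 bp upstream of Vha14-1, whose own TSS was the nearest there, with a signal of 60.3 at rank 1974 and a q value of 0.00127. It was matched in replicate 5 (26.3, rank 2686) and in replicate 6 (31.2, rank 2970). Neither IDR summit at a pump gene therefore had that gene's TSS as its nearest, while a weaker region at Vha14-1 did.

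Of the catalytic head, the broadly expressed A gene Vha68-2 had its highest pooled signal, 40.3 at rank 4714, 94 bp downstream of a TSS. Replicate 6 gave 35.6 at rank 2206 there, while replicate 5 had no region within 150 bp of that summit. The best region of replicate 5 at the gene, 20.1 at rank 5284, lay at another site, 137 bp downstream of a different TSS. The paralogues Vha68-1 and Vha68-3 had none in any list, although Vha68-3 lies only 178 bp from the end of Vha68-2 and Vha68-1 starts 373 bp from the divergent kinase gene mTor. The single B gene, Vha55, had a best pooled signal of 34.5 at rank 6418 with 26.4 at rank 4282 in replicate 6, and no region in replicate 5.

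The C gene Vha44, which encodes the subunit that joins and leaves the pump as it assembles, had a pooled signal of 65.2 at rank 1656, just outside the IDR list. That summit was intronic, 670 bp downstream of a Vha44 TSS, with replicate values of 37.6 (rank 1096) and 25.6 (rank 4587). Its other pooled summit, 87 bp upstream, had a signal of 61.3 at rank 1910, with 26.7 (rank 2573) and 27 (rank 4096) in the replicates. Both summits were nearer to a TSS of Hmgs, the hydroxymethylglutaryl-CoA synthase gene of the mevalonate pathway, which starts 123 bp away on the opposite strand.

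The rotor gene Vha36-1 (D) had a pooled signal of 57.2 at rank 2222, 83 bp upstream, with 26.6 (rank 2603) in replicate 5 and 35.6 (rank 2204) in replicate 6. The nearest TSS was that of CG8187, at 11 bp. Its paralogue Vha36-3 had 14.4 at rank 27989, with replicate ranks of 22293 and 28557, and Vha36-2 had none. The replicates thus placed Vha36-1 alike and its paralogues at the bottom of the lists or outside them.

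Of the peripheral stalk genes, Vha26 (E) had a pooled signal of 40.6 at rank 4659, with 15.6 (rank 9521) in replicate 5 and 25.5 (rank 4619) in replicate 6. Vha13 (G) had 31.1 at rank 7812, at -585 bp from its TSS. Near that summit replicate 5 had 17.0 (rank 7833) and replicate 6 had 14.9 (rank 11631). The best value of replicate 6 at Vha13, 22.3 (rank 5927), lay 32 bp downstream of the TSS. The regulatory H gene, VhaSFD, had 37.2 at rank 5536 and 13.8 (rank 13056) in replicate 6, with none in replicate 5. The summits of Vha26 and Vha13 were nearer to the divergent genes noi, a splicing factor gene, and Nup58, a nuclear pore gene. All 3 had pooled signals above the list's median of 21.4, and the ranks of Vha26 and VhaSFD were above the median best rank of all genes with a region (6954), while that of Vha13 was below it.

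In the membrane ring, Vha16-1, the broad c gene, had 6 pooled regions, the highest with a signal of 40.0 at rank 4786 and 7 bp from a TSS. Its best replicate values, 25.1 (rank 3052) and 33.2 (rank 2576), lay at other positions. At that highest summit replicate 6 had 26.7 (rank 4194), and replicate 5 had no region within 150 bp. Of its paralogues, Vha16-5 was the strongest of the whole other class, with a pooled signal of 45.4 at rank 3687. The replicates differed there, with 14.3 at rank 11637 in replicate 5 and 30.5 at rank 3140 in replicate 6. That summit was 251 bp upstream of Vha16-5 and 51 bp from the divergent gene CG12299. Vha16-3 had 15.5 at rank 25231, 981 bp upstream, with 12.4 (rank 16025) in replicate 5 at 56 bp from that summit but over 1000 bp from its TSS, and Vha16-2 and Vha16-4 had none.

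The c'' and d genes lay at rank 12574 or lower in every list. VhaPPA1-1 had 11.1 at rank 20332 in replicate 5 alone, and VhaPPA1-2 had 18.5 at rank 18993 in the pooled list and 7.67 at rank 28945 in replicate 6. VhaAC39-1 had a pooled signal of 14.6 at rank 27397, 84 bp upstream, and 14.2 (rank 12574) in replicate 6, 86 bp downstream, and VhaAC39-2 had 13.9 (rank 12980) in replicate 6 alone. These 4 genes showed no order between the classes that both replicates shared.

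The e genes went by replicate. VhaM9.7-b had its best pooled signal, 23.2 at rank 13002, 310 bp upstream, where the nearest replicate regions had 12.2 (rank 16779) and 8.31 (rank 26249). Its best replicate values lay elsewhere, 21.3 (rank 4538) at 691 bp downstream in replicate 5 and 17.5 (rank 9044) at 411 bp upstream in replicate 6. The nearest TSS to that pooled summit was that of COX8, at 105 bp, and the replicate 6 summit lay 4 bp from it. VhaM9.7-c had no pooled region but 29.0 at rank 3526 in replicate 6. VhaM9.7-a had 23.0 at rank 13211 in the pooled list, 80 bp from the TSS of CG11586, and 19.3 at rank 7644 in replicate 6. In replicate 5 only VhaM9.7-b of these e genes had a region, so the broad gene led there and not in replicate 6. The accessory gene VhaAC45 had 39.2 at rank 4991, with 20.3 (rank 5167) and 20.0 (rank 7212) in the replicates.

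The remaining a genes were also weaker than Vha100-2. Vha100-5 had a pooled signal of 17.9 at rank 20015, with best replicate values of 14.5 (rank 11297) and 11.4 (rank 17367) at other positions. Vha100-4 had 12.8 (rank 15013) and 15.1 (rank 11488) in the replicates and no pooled region. Its start lies 517 bp from the end of Vha100-2. Vha100-1, best known from neurons, had 29.6 at rank 3374 in replicate 6 only, 13 bp from its TSS.

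Within a subunit the broad gene usually had the highest signal, as a description of 9 subunits that have both classes (A, D, F, a, c, c'', d, e and accessory). In the pooled list that was so for 7 of 9, the exceptions being c, where Vha16-5 at 45.4 stood above Vha16-1 at 40.0, and c''. It was so for 8 of 9 in replicate 5, where neither d gene had a region, and for 7 of 9 in replicate 6, where c'' and e were the exceptions. Some margins were narrow, as for e in the pooled list (23.2 against 23.0) and d in replicate 6 (14.2 against 13.9). Others rest on values near a list's lowest signal. The pooled d value was 14.6, where the lowest was 13.7, and the c'' exception in replicate 6 was 7.67, where the lowest was 7.45. The c, c'' and e subunits were thus the ones in which a paralogue of the other class stood above the broad gene in at least 1 of these lists.

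**Figure D3:**
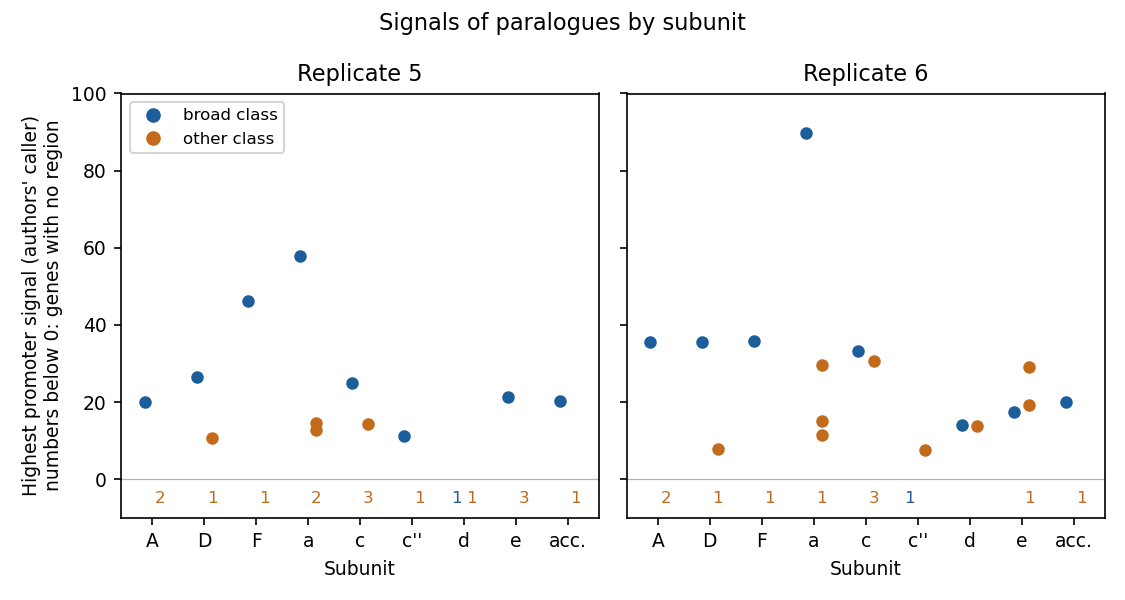
Highest signal of the authors' caller within 1000 bp of a TSS (vertical axis) in replicate 5 and replicate 6 for 9 subunits that have genes of both classes; each point is a gene, and numbers under the zero line count genes with no region. The highest points are the a gene Vha100-2, at 57.8 and 89.8, and signals are not on a shared scale between the panels.

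Over the 19 members with a pooled region, 42 pooled summits lay within 1000 bp of a TSS. The highest of them at each gene lay a median of 182 bp from the Vha TSS, under 500 bp away for 14 of the 19, and was upstream for 11 and downstream for 8. At 14 members the Vha TSS was the nearest of all TSSs to at least 1 pooled summit. A replicate 5 summit lay within 150 bp of 20 of the 42 and a replicate 6 summit of 28. Both replicates had one at 13 summits of 10 members, which is 31.0% of them, beside 38.9% of the 11919 pooled summits within 1000 bp of a protein-coding TSS and 31.5% of the whole pooled list.

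**Figure D4:**
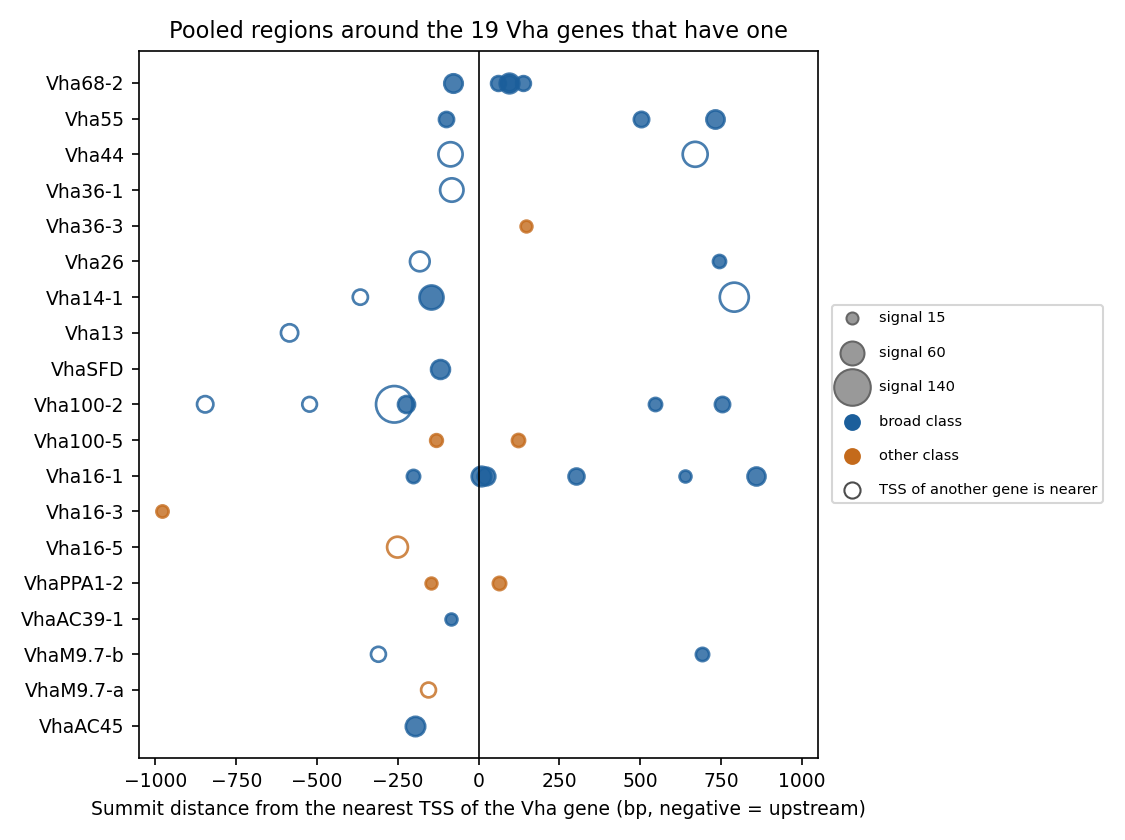
Distance of each pooled summit from the nearest TSS of the pump gene (bp, horizontal axis, negative upstream) for the 19 genes with a pooled region; marker area follows the pooled signal, colours give the class and open markers are summits nearer to a TSS of another gene. The large open markers are the IDR summits of Vha100-2, at -261 bp, and Vha14-1, at 791 bp.

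Sequence elements were counted on both strands with 5 motifs, CACGTG (the E-box core), TCACGTGA (the longer palindrome bound by the Mitf and TFEB family, which contains the E-box core), TGTTTAC (a forkhead core of FOXO factors), GAGAGAG (the GAGA element) and TATCGATA (the DNA replication-related element, DRE). Promoter windows ran from 250 bp before to 50 bp after 1 annotated TSS per gene, so a gene's other TSSs had no window. In these windows CACGTG was found at 2 of 33 members (6.06%), beside 4.26% of all protein-coding genes. TGTTTAC was found at 3 (9.09%, against 9.32%) and GAGAGAG at 2 (6.06%, against 6.20%). TATCGATA was found at 2 (6.06%, against 8.94%) and TCACGTGA at none of the 33 (against 0.172%). Outside these windows, TCACGTGA lay at -44 bp from another TSS of Vha44 and at -96 bp from another of Vha68-2. CACGTG likewise lay at -56 bp from another TSS of Vha55. Within 100 bp of the highest pooled summit, TGTTTAC was found at 2 of 19 members, Vha36-1 and Vha44 (10.5%), beside 6.52% of the 1427 IDR summits. GAGAGAG was found at 1, Vha16-1 (5.26%, against 13.2%), and TATCGATA at 1, Vha13 (5.26%, against 2.38%). CACGTG (against 2.24%) and TCACGTGA (against 0.0701%) were found at 1, Vha68-2 (5.26%). The member summits run to pooled rank 27989 and only those of Vha100-2 and Vha14-1 are in the IDR list, so the 2 sets of summits are unlike in strength. The shares with the forkhead core at pump promoters and at all promoters thus lay close to each other.

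In a wider window of 1000 bp around any TSS, a choice made after the values were seen, TCACGTGA was found at 3 members, all broad, Vha68-2, Vha16-1 and Vha44 (9.09%, against 1.43% of all genes). CACGTG was found at 17 members (51.5%, against 27.1%), TGTTTAC at 13 (39.4%, against 40.3%) and TATCGATA at 3 (9.09%, against 15.8%). All 3 TCACGTGA sites lay within 100 bp of a pooled summit, at 26, 74 and 43 bp, where 22 of 173 such sites near protein-coding TSSs did (12.7%). Those summits had pooled signals of 40.3 at Vha68-2, 32.4 at Vha16-1 and 61.3 at Vha44. Only the one at Vha44 had a region within 150 bp in both replicates. Those at Vha68-2 and Vha16-1 had one in replicate 6 only, at 17 and 97 bp. These genes have several TSSs, and their windows cover 3081 bp (Vha68-2), 2707 bp (Vha16-1) and 4002 bp (Vha44). The median over all protein-coding genes was 2001 bp, so the shares of 9.09% and 1.43% are not of like windows. All 3 sites of TATCGATA, at Vha55, VhaSFD and Vha13, had a pooled summit within 100 bp of their midpoint, where 30.7% of such sites did. For TGTTTAC it was 3 of 15 sites, against 14%. For CACGTG it was 3 of 21 sites, those inside the TCACGTGA sites, against 8.19%. GAGAGAG was found at 8 members (24.2%, against 23.1%), with 3 of 13 sites that near a summit, against 22.2%.

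Below are stretches of the dm6 reference around 5 pooled summits, read from the RefSeq Release 6 genome and trimmed where they would enter a UTR. They are shown because the first 3 carry the elements counted above and the last 2 carry none of the 5 motifs, though their signals are as high or higher. Most summits carry none. Of the 19 highest pooled summits, only those of Vha13, Vha16-1, Vha36-1, Vha44 and Vha68-2 had any of the motifs within 100 bp. The Vha55 stretch is at the pooled summit nearest to a TSS, which is not its highest. Capitals mark a motif, and each stretch runs 5′ to 3′ on the strand of its gene. Vha68-2 (chr2L:12975224-12975380, plus strand, signal 40.3) holds TCACGTGA. Vha55 (chr3R:12627830-12628030, minus strand, signal 23.8 at 101 bp upstream) holds TATCGATA and, on the opposite strand, TGTTTAC, which reads GTAAACA here. Vha13 (chr3R:19644871-19645025, minus strand, signal 31.1) holds TATCGATA. Vha26 (chr3R:5591481-5591681, plus strand, signal 40.6) and Vha16-5 (chr2L:10737194-10737344, minus strand, signal 45.4) hold none.
Vha68-2: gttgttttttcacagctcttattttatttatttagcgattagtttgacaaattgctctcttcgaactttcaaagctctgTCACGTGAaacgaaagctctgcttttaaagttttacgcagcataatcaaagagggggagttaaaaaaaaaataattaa
Vha55: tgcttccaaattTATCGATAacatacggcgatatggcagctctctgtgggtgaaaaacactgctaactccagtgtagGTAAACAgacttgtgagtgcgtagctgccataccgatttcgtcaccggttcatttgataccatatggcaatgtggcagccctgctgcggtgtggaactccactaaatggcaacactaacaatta
Vha13: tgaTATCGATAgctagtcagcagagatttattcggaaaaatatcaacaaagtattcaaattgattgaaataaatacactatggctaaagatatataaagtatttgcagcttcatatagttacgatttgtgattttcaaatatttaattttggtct
Vha26: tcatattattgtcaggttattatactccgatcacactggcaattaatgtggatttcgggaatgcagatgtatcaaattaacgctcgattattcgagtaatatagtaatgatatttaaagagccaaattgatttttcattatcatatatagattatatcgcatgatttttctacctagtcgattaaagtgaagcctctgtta
Vha16-5: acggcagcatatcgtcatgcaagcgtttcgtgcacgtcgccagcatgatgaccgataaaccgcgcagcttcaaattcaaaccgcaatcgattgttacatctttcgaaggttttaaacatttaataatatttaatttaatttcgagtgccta
A match is a run of letters in the reference and not a measured binding site. The stretches of Vha26 and Vha16-5 show that a summit of this list need not have any of these motifs beside it, and the forkhead core at Vha55 lies 20 bp from a summit at rank 12543.

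Genes that work with the pump were described from a list of 27 regulators, lysosomal partners and ion transporters. Pooled regions lay at 22 of 27 (81.5%, against 58.3% of all protein-coding genes) and regions in both replicates at 16 (59.3%, against 43.6%), and 1 had an IDR summit (3.70%, against 7.71%). That gene was Lamtor3, a scaffold of the Ragulator complex that anchors TOR signalling to the lysosome, with a pooled signal of 105 at rank 488 and replicate values of 37.5 (rank 1103) and 67.2 (rank 367). Mitf, which encodes the fly counterpart of TFEB, had 32.3 at rank 7272, 49 bp downstream of a TSS, with 24.6 (rank 3185) at the same distance in replicate 5, while the best region of replicate 6 (33.3, rank 2564) lay 550 bp downstream. The lysosomal protease genes CtsL1 and CtsB had 62.9 (rank 1794), at -942 bp from a TSS, and 62.6 (rank 1811), at -6 bp, just outside the IDR list. A further lysosomal protease gene, cathD, had 30.4 at rank 8158, with 18.5 (rank 8202) in replicate 6 and none in replicate 5. No pooled region lay at Rbcn-3B, RagA-B, Lamtor1, Lamtor2 or Trpml. ATP6AP2, the prorenin receptor gene formerly VhaM8.9, falls outside the symbol rule and had 32.2 at rank 7331, with 33.5 (rank 2522) in replicate 6 and none in replicate 5.

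The related rotary enzyme of mitochondria, ATP synthase, makes ATP from a proton gradient and was set beside the pump. Of 15 ATP synthase genes, 4 had a pooled region (26.7%), 3 had a region in both replicates (20.0%, against 43.6% of all genes), and 1, ATPsynE, had an IDR summit (6.67%, against 7.71%). That summit, with a signal of 78.2 at rank 1035, lay 873 bp from ATPsynE and was nearer to spn-B. ATPsynbeta, the catalytic subunit gene, had 49.0 at rank 3121. The pooled share of this family lay below those of all pump genes (57.6%) and of all protein-coding genes (58.3%), and the difference was not tested. The share depended on the list. Replicate 6 also had regions at ATPsynB, ATPsynCF6, ATPsynF, ATPsynG and ATPsyndelta, which had none in the pooled list or replicate 5.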

How the data were processed

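The 33 members and the gene lists were chosen with earlier results of these data known. Per the file headers and labels, the authors deposited region lists in dm6 and dm3, and the dm3 lists were not used. Column 7 is the score that the authors' caller gave each region, called signal here, and no source used here names its scale. The authors deposited −log10 of the q-value in column 9 and the summit offset from the region's start in column 10. For the aligner and the peak caller, names are not given in the sources used here. Replicate lists came from each library and the pooled and IDR lists from both. No columns of other samples were present.

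Python 3.11.15 was used with pandas 2.3.3, NumPy 2.4.6, SciPy 1.17.1 and matplotlib 3.10.9. A summit within 1000 bp of any TSS of Ensembl release 115 (13945 protein-coding genes) was assigned to that gene, so 1 summit may serve several genes. The assignment was checked on simulated data. Genes named with full values were those with an IDR summit, then those with regions in both replicates. The others are given by their values in the lists that hold them. Depth is unknown, and no p-value was computed. Alternatives were the distance, list length, q value, TSS choice and each replicate left out.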

Additional observations from a re-analysis of the deposited data

How the results depend on the processing

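Of 42 recomputed values, 26 stayed within 1.5 times the reported count and 16 did not. The count of 2 members with an IDR summit, both of the broad class, became 1 within 500 bp, 1 with the highest 713 regions and 1 with the most upstream TSS alone (Vha14-1). It became 0 when a summit counted only for the gene with the nearest TSS. With a replicate left out it ranged from 1 (without replicate 5, Vha100-2) to 3 (without replicate 6, Vha100-2, Vha14-1 and Vha44). For the other class it was 0 throughout. The 14 members with a region in both replicates became 2 at a q value of at most 0.01 (Vha100-2 and Vha14-1) and 9 when replicate summits had to lie within 150 bp of each other, a choice made after seeing the data. Of the 9, Vha16-5 and Vha36-3 were of the other class and the rest broad. The share of all protein-coding genes was not computed for either setting, so these falls cannot be read as particular to pump genes. The 19 members with a pooled region became 4 at a q value of at most 0.01 (12.1%, against 17.5% of all genes) and 12 in the 10000 highest regions (36.4%, against 36.1%). They ranged from 15 to 22 with 1 replicate left out. They became 14 when a summit counted only for the gene with the nearest TSS, a choice made after seeing the data. Of those, Vha100-5, Vha16-3, Vha36-3 and VhaPPA1-2 were of the other class and the rest broad. The 2 promoters with CACGTG became 7 of 33 within 500 bp on each side, where 12.9% of all protein-coding genes had one. For TCACGTGA in the main window the count was 0, against 0.172%.

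No paired analysis was possible because all samples belong to 1 group. The relaxed lists have a fixed length, so a gene without a region is below that list's lowest signal and not shown to be unbound. The classes rest on general knowledge of expression, not on a measurement in these larvae.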
